A study of Homo sapiens with 18 samples.

Results

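Receptors of the TNF superfamily sit in the plasma membrane, bind trimeric ligands of the TNF family outside the cell and recruit adaptor proteins inside it. Receptors with a cytoplasmic death domain (TNFRSF1A, FAS, TNFRSF10A, TNFRSF10B and TNFRSF21) can start caspase-driven cell death, and those that bind TRAF adaptors (LTBR, TNFRSF12A and TNFRSF9) relay to NFκB. After internalization such receptors pass through endosomes, from which the ESCRT complexes sort membrane proteins into intraluminal vesicles for degradation in lysosomes. The data here are mRNA levels of these receptors and hold no measurement of receptor protein or of its location.

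The 8 genes were chosen by symbol, from the RefSeq identifier of each counted target, and all 8 were found among the 20802 targets of the panel. All of them were chosen as receptors that depend on endosomal sorting, except TNFRSF9, which was chosen because it was induced in these same libraries. All changes of TNFRSF9 are therefore given as descriptions with no test, and counts of called members cover the other 7.

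RNA came from RKO cells, an established human colorectal carcinoma line, 72 h after transfection with 30 nM of a single siRNA. The 6 groups were transfected with the nontargeting siCtrl#1 or siCtrl#2, with siTsg101#1 or siTsg101#2 against TSG101, or with siVps28#1 or siVps28#2 against VPS28, and each had 3 replicates. TSG101 and VPS28 encode core subunits of ESCRT-I, the complex that binds ubiquitinated cargo on endosomes. The replicate number is also the batch in the labels, and each batch holds 1 library of every group, so batch and siRNA are separate. All groups are transiently transfected cultures of 1 cell line, and siCtrl#1 was the reference of the study.

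The libraries held between 2561790 and 7466916 counted reads, and the shallowest and the deepest both belonged to siTsg101#1. TSG101 fell to a mean of 3.90 CPM (the count divided by its library size, scaled by TMM) with siTsg101#1 and 3.43 with siTsg101#2, against 118 with siCtrl#1, and VPS28 to 5.68 with siVps28#1 and 6.11 with siVps28#2 against 103. Of the epithelial and intestinal markers, EPCAM, KRT8, KRT18 and CDX2 were counted in all 18 libraries, whereas CDH1 had 0 reads, KRT19 and KRT20 1 read each and VIL1 6 reads over all libraries together. PTPRC and CD3E, which mark leukocytes and T cells, had 0 reads. The summed level of the markers of other cell types was 519 to 725 CPM with siCtrl#1, 787 to 1057 with siCtrl#2, 1208 to 1672 with siTsg101#1, 1096 to 1138 with siTsg101#2, 692 to 850 with siVps28#1 and 1210 to 1630 with siVps28#2, nearly all of it from CD68, a lysosomal glycoprotein of macrophages that other cells also express. The summed epithelial and intestinal markers were at 140 to 145 CPM with siCtrl#1, 127 to 166 with siCtrl#2, 112 to 119 with siTsg101#1, 93.9 to 115 with siTsg101#2, 97.0 to 123 with siVps28#1 and 111 to 145 with siVps28#2. The part of either sum in the results was not tested.

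The panel reads 1 amplicon per target, so levels are compared between groups and never between genes. A difference was called where it reached 1.5-fold with an adjusted p-value under 0.05 by the edgeR quasi-likelihood test with Benjamini-Hochberg adjustment over the 10212 genes tested. All 8 receptors passed the filter on low counts.

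In the GRCh37 annotation, TNFRSF1A lies on chromosome 12 from 6437923 to 6451280 and LTBR, on the other strand of the same chromosome, from 6484211 to 6500737. TNFRSF21 lies on chromosome 6 (47199268 to 47277641), FAS on chromosome 10 (90750414 to 90775542), TNFRSF12A on chromosome 16 (3068446 to 3072384) and TNFRSF9 on chromosome 1 (7975931 to 8003225). Exons of FAS share 917 bases with genes on the opposite strand, among them ACTA2, and those of TNFRSF10A share 490, LTBR 422, TNFRSF10B 377 and TNFRSF12A 40 bases with opposite-strand genes. At most 3.9% of the 50-base stretches of a receptor's exons, in LTBR, occur in a transcript of another gene.

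Of the 8 receptors, 5 (TNFRSF1A, TNFRSF21, FAS, LTBR and TNFRSF9) have a promoter in the RefSeq table, which is of build GRCh38.p14. Of these, FAS, TNFRSF1A and TNFRSF21 were called in the comparisons between on-target siRNAs described further on, and TNFRSF9 is described there with no test. The stretches below, located by exact match in GRCh37, are shown for these 4 receptors. For FAS, TNFRSF1A and TNFRSF21 they are the part of the 250 bases before the RefSeq start that lies upstream of every annotated untranslated region, and for TNFRSF9 the 30 bases that begin at its NFκB match. They read 5′ to 3′ along the gene, with matches to the NFκB consensus, the AP-1 site TGANTCA and the GC box GGGCGG, on either strand, in capitals.
TNFRSF9, chr1:8000944-8000973, minus strand: GGGAATTTCCCatgagaccCCGCCCctggc
FAS, chr10:90750305-90750413, plus strand: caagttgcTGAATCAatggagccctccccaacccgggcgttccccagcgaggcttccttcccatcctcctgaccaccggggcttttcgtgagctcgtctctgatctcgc
TNFRSF1A, chr12:6451281-6451492, minus strand: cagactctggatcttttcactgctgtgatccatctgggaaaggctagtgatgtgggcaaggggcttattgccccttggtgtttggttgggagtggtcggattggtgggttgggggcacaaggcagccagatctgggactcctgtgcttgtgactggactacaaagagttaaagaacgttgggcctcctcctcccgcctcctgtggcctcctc
TNFRSF21, chr6:47277642-47277891, minus strand: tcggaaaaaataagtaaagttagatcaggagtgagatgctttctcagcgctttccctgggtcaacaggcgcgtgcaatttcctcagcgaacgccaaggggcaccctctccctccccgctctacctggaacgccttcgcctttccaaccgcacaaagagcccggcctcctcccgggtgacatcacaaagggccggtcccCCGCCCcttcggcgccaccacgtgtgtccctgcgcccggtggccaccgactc

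Among these 5 windows of 250 bases, only that of TNFRSF9 matched the NFκB consensus, with 2 overlapping matches that begin 74 and 73 bases upstream of the RefSeq start, in a stretch that GENCODE annotates as untranslated in 1 longer transcript. The TNFRSF9 window also held an AP-1 site 44 bases and a GC box 55 bases upstream. The FAS window held an AP-1 site at 242 bases and a GC box at 60, the TNFRSF21 window a GC box at 52 and an E-box (CACGTG) at 34, and the LTBR window an E-box at 134 and 4 GC boxes. The TNFRSF1A window held none of these motifs and no TATAAA, which none of the 5 windows held. Over 35116 promoter windows of the same length, the NFκB consensus was found in 9.96%, the AP-1 site in 6.57%, the E-box in 6.34%, the GC box in 42.6% and TATAAA in 10.7%.

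**Figure D1:**
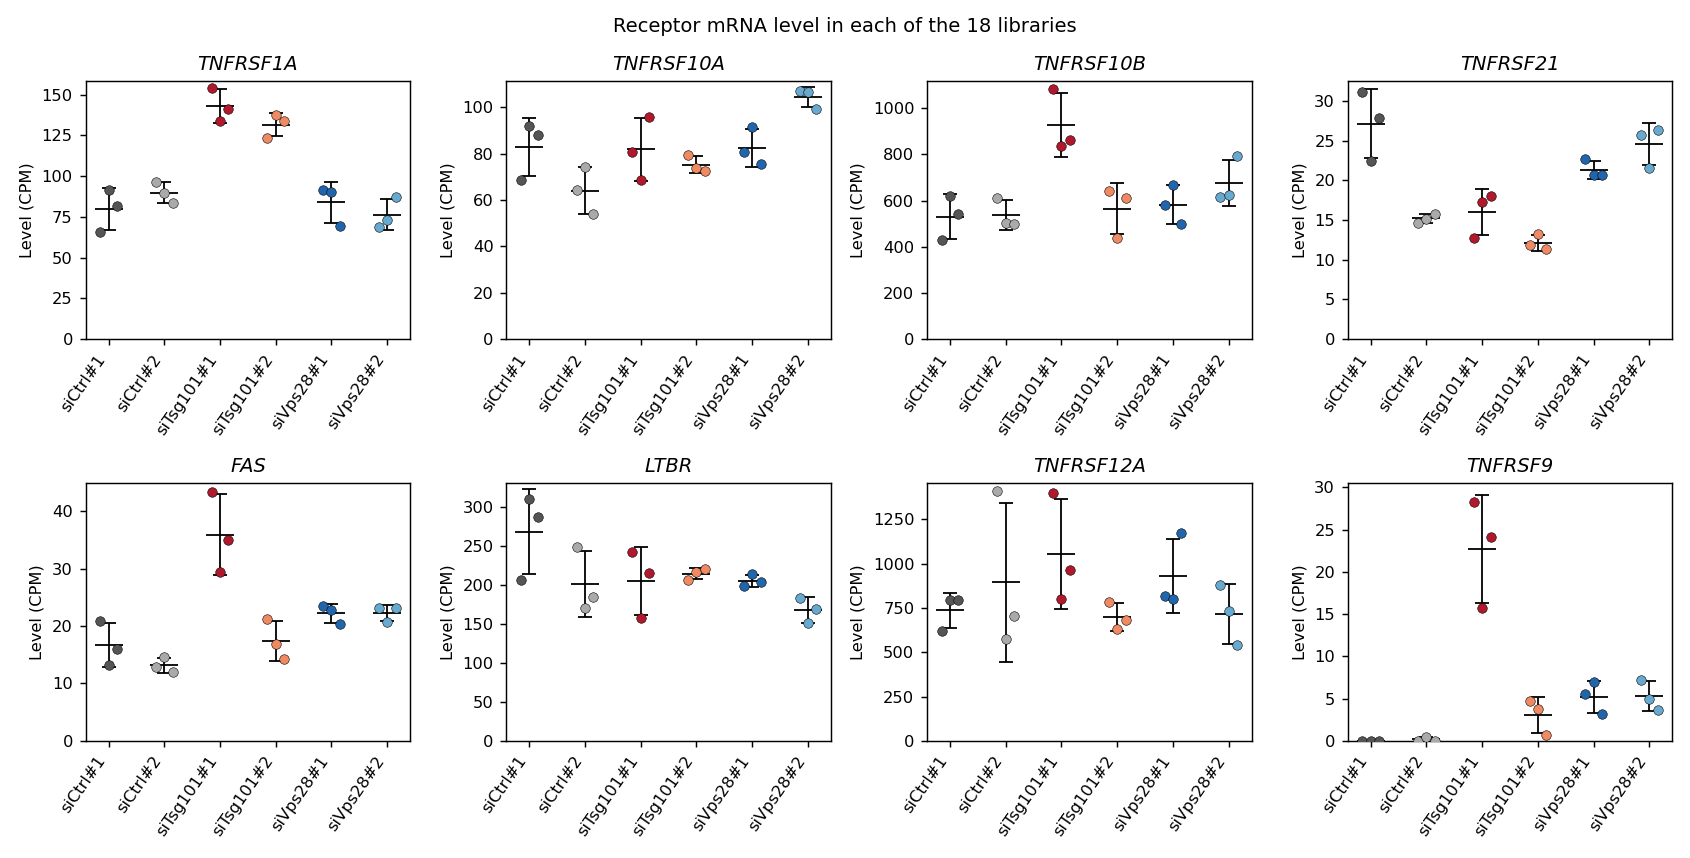
Level of each receptor mRNA in CPM (vertical axis, from 0, with its own scale in each panel) in the 18 libraries, by siRNA group; points are libraries in the order of replicates 1 to 3, and bars the mean ± SD (n = 3). TNFRSF1A was higher in the 6 siTsg101 libraries than in the other 12, whereas TNFRSF10B, FAS and TNFRSF9 were highest in the 3 siTsg101#1 libraries.

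To ask whether loss of ESCRT-I was accompanied by a change in the receptors' own mRNA, each on-target siRNA was set against siCtrl#1. With siTsg101#1, TNFRSF1A, TNFRSF10B and FAS rose and TNFRSF21 fell, so that 3 of 7 receptors were called higher and 1 lower, where 11.8% and 10.1% of all genes were called. With siTsg101#2, TNFRSF1A rose and TNFRSF21 fell (1 of 7 in each direction, against 10.4% and 6.66% of all genes). With siVps28#1, none of the 7 was called higher or lower (4.92% and 3.76% of all genes), 1 had an unadjusted p under 0.05, and DESeq2 called 0. With siVps28#2, LTBR was called lower, 1 of 7 against 6.23% of all genes, and none higher, against 7.09%, with 1 higher at an unadjusted p under 0.05 and 0 by DESeq2.

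No receptor of the 7 moved 1 way with each of the 4 on-target siRNAs, whether called by edgeR, called by DESeq2 or taken at an unadjusted p under 0.05, whereas 2.59% of all genes were commonly higher and 1.54% commonly lower. In the mean of the 4 on-target siRNAs, TNFRSF21 was called lower (1 of 7, against 6.54% of all genes) and none was called higher (8.56% of all genes). At an unadjusted p under 0.05, 3 of the 7 were higher in that mean and 2 lower, and DESeq2 called 0 higher and 1 lower. The share of all genes at that unadjusted p is not given here. The siRNAs with which each receptor was called are described next.

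TNFRSF1A, the main signalling receptor for TNF, rose with both siRNAs against TSG101 and was not called with those against VPS28. Its level was 65.9, 91.6 and 81.9 CPM in replicates 1 to 3 of siCtrl#1 and 96.5, 89.9 and 83.3 CPM with siCtrl#2. It was 154, 134 and 141 CPM with siTsg101#1 and 124, 137 and 134 CPM with siTsg101#2. Depletion of Vps28 left it at 91.7, 90.3 and 69.4 CPM with siVps28#1 and at 68.7, 73.2 and 87.3 CPM with siVps28#2. All 6 siTsg101 libraries lay above the other 12, with no overlap, a pattern shown by 2.29% of all genes and by 1 of the 7 receptors.

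TNFRSF1A rose by 0.84 ± 0.16 (log2 fold change ± SE, 1.79-fold) with siTsg101#1, with an edgeR adjusted p of 3.68e-04, and by 0.72 ± 0.15 (1.65-fold) with siTsg101#2, with an adjusted p of 0.00188. The values with siVps28#1 and siVps28#2 were 0.07 ± 0.16 (adjusted p = 0.845) and -0.06 ± 0.16 (adjusted p = 0.841). Against siCtrl#2 the change with siTsg101#1 was 0.67 ± 0.16 (adjusted p = 0.00352) and that with siTsg101#2 was 0.55 ± 0.15 (adjusted p = 0.0157), which is under 1.5-fold.

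FAS, the receptor for FAS ligand, was highest with siTsg101#1. Its level there was 43.4, 29.4 and 35.0 CPM in replicates 1 to 3, from 106, 112 and 251 counts. With siTsg101#2 it was 21.2, 16.8 and 14.3 CPM, within the range of siCtrl#1 (20.8, 13.2 and 16.1 CPM) in all but 1 library. With siVps28#1 it was 23.5, 22.8 and 20.4 CPM, with siVps28#2 23.1, 20.7 and 23.1 CPM, and with siCtrl#2 12.9, 14.6 and 11.9 CPM. The siVps28 libraries lay above all siCtrl#2 libraries, as for 3 of the 7 receptors and 6.75% of all genes, but overlapped the highest of siCtrl#1.

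FAS rose 2.12-fold with siTsg101#1 relative to siCtrl#1 (log2 1.08 ± 0.20, edgeR adjusted p = 3.63e-04). The log2 values were 0.05 ± 0.20 with siTsg101#2, 0.40 ± 0.21 with siVps28#1 (adjusted p = 0.252) and 0.40 ± 0.20 with siVps28#2 (adjusted p = 0.192), none of them called. Against siCtrl#2 FAS was called higher with siTsg101#1 (1.44 ± 0.21, adjusted p = 2.59e-05), siVps28#1 (0.76 ± 0.21, adjusted p = 0.0366) and siVps28#2 (0.76 ± 0.21, adjusted p = 0.0186). ACTA2, which overlaps FAS on the opposite strand, was at 2.77 to 7.07 CPM in the 18 libraries, and its part in the FAS counts was not tested.

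TNFRSF10B, the TRAIL receptor also known as DR5, followed the same siRNA. It lies on chromosome 8 from 22877646 to 22926544, beside TNFRSF10A (23047965 to 23082615). It was 1085, 835 and 862 CPM with siTsg101#1 and 428, 621 and 543 CPM with siCtrl#1. It was 642, 439 and 613 CPM with siTsg101#2, 580, 668 and 500 CPM with siVps28#1, 617, 625 and 793 CPM with siVps28#2 and 612, 503 and 498 CPM with siCtrl#2. The 3 siTsg101#1 libraries lay above the other 15 for TNFRSF10B and FAS, 2 of the 7 receptors, against 1.78% of all genes. TNFRSF10B rose 1.75-fold with siTsg101#1 (log2 0.81 ± 0.18, edgeR adjusted p = 0.00214), whereas its log2 values with siTsg101#2, siVps28#1 and siVps28#2 were 0.09, 0.14 and 0.35, each ± 0.18 and not called.

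TNFRSF10A, the other death-inducing TRAIL receptor (DR4), was not called with any on-target siRNA relative to siCtrl#1. Its mean level was 82.8 ± 12.4 CPM (SD, n = 3) with siCtrl#1, 64.0 ± 10.1 with siCtrl#2, 81.8 ± 13.6 with siTsg101#1, 75.3 ± 3.74 with siTsg101#2 and 82.5 ± 8.23 with siVps28#1. The siVps28#2 libraries held 107, 107 and 99.3 CPM, above every other library, which 1 of the 7 receptors and 0.421% of all genes showed. This corresponded to a log2 value of 0.33 ± 0.16 relative to siCtrl#1 (edgeR adjusted p = 0.176) and to a called rise of 0.71 ± 0.16 relative to siCtrl#2 (adjusted p = 0.00540).

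TNFRSF21, an orphan death-domain receptor also known as DR6, was the one receptor called between the nontargeting siRNAs. It was 31.0, 22.4 and 27.9 CPM with siCtrl#1 but 14.7, 15.1 and 15.8 CPM with siCtrl#2. It was 12.7, 17.3 and 18.01 CPM with siTsg101#1, from as few as 31 counts, and 11.9, 13.2 and 11.3 CPM with siTsg101#2. It was 22.6, 20.7 and 20.6 CPM with siVps28#1 and 25.7, 21.5 and 26.4 CPM with siVps28#2. The siCtrl#2 libraries overlapped those of siTsg101#1, and the siVps28 libraries lay between siCtrl#2 and the top of siCtrl#1.

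Relative to siCtrl#1, TNFRSF21 fell by 0.74 with siTsg101#1 (log2, SE 0.18, edgeR adjusted p = 0.00459) and by 1.17 with siTsg101#2 (SE 0.18, adjusted p = 7.37e-05). It fell by 0.60 in the mean of the 4 on-target siRNAs (SE 0.14, adjusted p = 0.00240). However, it also fell by 0.84 with siCtrl#2 (SE 0.18, adjusted p = 0.0140), 1 of 7 receptors called lower in that comparison, against 0.676% of all genes. None was called higher there (1.41% of all genes), with 0 at an unadjusted p under 0.05 and 0 by DESeq2. At an unadjusted edgeR p under 0.05, 3 of the 7 were lower with siCtrl#2, namely TNFRSF21, LTBR (-0.41) and TNFRSF10A (-0.37). The share of all genes at that p is not given here. The 3 siCtrl#2 libraries lay below the 3 siCtrl#1 libraries for TNFRSF21 and for 8.29% of all genes.

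The choice of nontargeting siRNA turned the sign of TNFRSF21 with every on-target siRNA but siTsg101#2. With siCtrl#2 as the reference its value was 0.10 ± 0.19 with siTsg101#1, -0.32 ± 0.19 with siTsg101#2 and 0.48 ± 0.19 with siVps28#1, none called, and it was called higher with siVps28#2 (0.69 ± 0.18, edgeR adjusted p = 0.0165). Relative to the mean of siCtrl#1 and siCtrl#2, it was called lower with siTsg101#2 (-0.74 ± 0.16, adjusted p = 0.00175) and not with siTsg101#1 (-0.32 ± 0.16, adjusted p = 0.158).

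Among the receptors that bind TRAF adaptors, LTBR, the lymphotoxin β receptor, had a lower mean than with siCtrl#1 in every on-target group and with siCtrl#2, and was called with siVps28#2. It was 206, 310 and 287 CPM with siCtrl#1, 249, 170 and 184 CPM with siCtrl#2 and 183, 151 and 169 CPM with siVps28#2. The means were 205 ± 43.8 CPM with siTsg101#1, 214 ± 6.94 with siTsg101#2 and 205 ± 7.58 with siVps28#1 (SD, n = 3). The siVps28#2 libraries lay below all siCtrl#1 libraries, as for 1 of the 7 receptors and 15.3% of all genes, and overlapped those of siCtrl#2.

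LTBR fell by 0.67 with siVps28#2 (log2, SE 0.18, edgeR adjusted p = 0.0114). This call was lost without replicate 2 of siCtrl#1 (-0.56, adjusted p = 0.0689) or replicate 2 of siVps28#2 (-0.60, adjusted p = 0.0532). Its value was -0.41 ± 0.18 with siCtrl#2 (adjusted p = 0.278), and with siCtrl#2 as the reference that of siVps28#2 was -0.26 ± 0.18 (adjusted p = 0.415).

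TNFRSF12A, the TWEAK receptor also known as Fn14, had the widest SE of the 7 and was not called in any comparison. Its mean level was 737 ± 100 CPM with siCtrl#1, 897 ± 449 with siCtrl#2, 1055 ± 309 with siTsg101#1, 699 ± 78.8 with siTsg101#2, 930 ± 210 with siVps28#1, and siVps28#2 gave 717 ± 169 (SD, n = 3). Replicate 1 was the highest library of siCtrl#2 (1409 CPM) and of siTsg101#1 (1399 CPM). Relative to siCtrl#1, the SE was 0.26 with each on-target siRNA, and the value with siTsg101#1 was 0.52 (edgeR adjusted p = 0.154). Between siTsg101#1 and siTsg101#2 it was 0.59 ± 0.26 (adjusted p = 0.177).

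TNFRSF9, also known as 4-1BB or CD137 and best known as a costimulatory receptor of T cells, was essentially uncounted without ESCRT-I depletion. It had 0 counts in all 3 siCtrl#1 libraries, which at these depths allows up to 0.513 to 0.922 CPM, and 0, 2 and 0 counts with siCtrl#2. It had 69, 60 and 173 counts with siTsg101#1 (28.2, 15.7 and 24.2 CPM) and 30, 24 and 4 counts with siTsg101#2 (4.68, 3.74 and 0.665 CPM). With siVps28#1 it had 19, 29 and 14 counts (5.52, 6.96 and 3.21 CPM), and with siVps28#2 44, 30 and 21 counts (7.15, 4.96 and 3.65 CPM). The lowest on-target library held 4 counts (0.665 CPM), and the highest nontargeting one, replicate 2 of siCtrl#2, held 2 counts (0.495 CPM).

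Set against a floor of 3 counts per siCtrl#1 library (mean 0.705 CPM), the TNFRSF9 mean was 32.2-fold higher with siTsg101#1 and 4.29-fold with siTsg101#2. It was 7.42-fold higher with siVps28#1 and 7.45-fold with siVps28#2. Replicate 3 of siTsg101#2, at 0.665 CPM, lay below that floor. These ratios of means leave out the spread between replicates. They have no test, because TNFRSF9 was chosen for its induction. The counts cover counting error only, since the amplified reads carry no molecular identifiers.

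**Figure D2:**
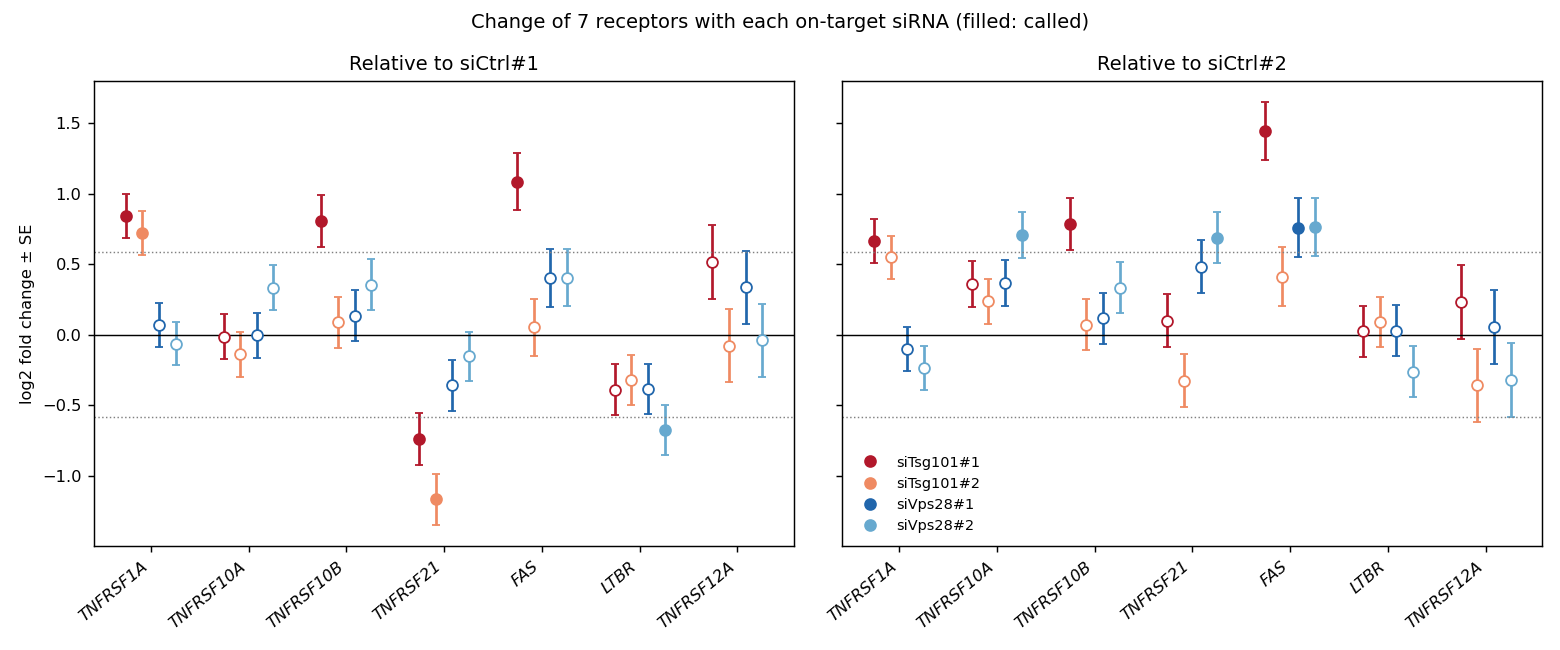
Log2 fold change ± SE of 7 receptors (horizontal axis) with each of the 4 on-target siRNAs, relative to siCtrl#1 (left) and to siCtrl#2 (right); filled points were called, and dotted lines mark 1.5-fold. TNFRSF1A, TNFRSF10B and FAS rose with siTsg101#1 on both sides, whereas TNFRSF21 was called lower in the left panel only.

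With siCtrl#2 in place of siCtrl#1, edgeR called partly different receptors, and none had an unadjusted p under 0.05 for a lower level in any of these comparisons. With siTsg101#1, TNFRSF1A, TNFRSF10B and FAS were called higher, 3 of 7 against 8.94% of all genes, and none lower (7.13%). With siTsg101#2 none of the 7 was called higher (8.43%) or lower (5.98%), whereas TNFRSF1A alone had an unadjusted p under 0.05. With siVps28#1, FAS was called higher (2.71%) and none lower (1.69%). With siVps28#2, TNFRSF10A, TNFRSF21 and FAS were called higher, 3 of 7 against 5.1% of all genes, and none lower (4.15%).

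In the mean of the 4 on-target siRNAs relative to siCtrl#2, FAS alone of the 7 was called, at 0.84 ± 0.17 (edgeR adjusted p = 0.00138), where 6.13% of all genes were called higher and 4.37% lower. Its value relative to siCtrl#1 was 0.49 ± 0.17 (adjusted p = 0.0343), under 1.5-fold. These comparisons share the on-target libraries with those relative to siCtrl#1.

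The comparison of Tsg101 with Vps28 depletion has no control library in its contrast, although these libraries enter the shared estimate of the spread. Of the 7 receptors other than TNFRSF9, 1 was called higher with siTsg101 (4.16% of all genes) and 1 lower (2.07%). TNFRSF1A was higher with siTsg101 by 0.78 ± 0.11 (log2, 1.71-fold, edgeR adjusted p = 2.75e-05), and within batches 1 to 3 by 0.79, 0.73 and 0.82. Its 6 siTsg101 libraries lay above the 6 siVps28 libraries, as did those of 3.33% of all genes.

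TNFRSF21 was lower with siTsg101 than with siVps28, with a difference of -0.70 ± 0.13 (edgeR adjusted p = 6.81e-04) and, within the 3 batches, of -0.95, -0.47 and -0.69. Its 6 siTsg101 libraries lay below the 6 siVps28 libraries, which 1.65% of all genes shared. TNFRSF9, given with no test, differed by 0.67 ± 0.31, and by 0.89 without replicate 3 of siTsg101#2, its library of 4 counts. The values of the remaining 5 receptors lay between -0.24 (TNFRSF10A) and 0.20 (TNFRSF10B).

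siRNAs against the same mRNA can differ, and 2 of the 7 receptors other than TNFRSF9 were called between those against TSG101. TNFRSF9 was higher with siTsg101#1 than with siTsg101#2 by 2.87 ± 0.42 (log2, 7.33-fold), a description with no test. FAS was higher by 1.03 ± 0.20 (2.04-fold, edgeR adjusted p = 0.00173), and within batches by 1.02, 0.79 and 1.27. TNFRSF10B was higher by 0.71 ± 0.18 (1.64-fold, adjusted p = 0.0154), and within batches by 0.76, 0.93 and 0.49. The TNFRSF10B call was lost without replicate 1 of siTsg101#1 (0.60, adjusted p = 0.0858) or replicate 2 of siTsg101#2 (0.58, adjusted p = 0.0814).

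By contrast, TNFRSF1A differed between the TSG101 siRNAs by 0.12 ± 0.15 (edgeR adjusted p = 0.709). Among all genes 3.12% were called higher with siTsg101#1 than with siTsg101#2 and 3.87% lower. None of the 7 receptors was lower, by DESeq2 or at an unadjusted p under 0.05 either. Between siVps28#1 and siVps28#2, none of the 7 receptors was called higher (0.215% of all genes) or lower (0.264%). DESeq2 called 0 there, and TNFRSF10A, at -0.34 ± 0.16, was the 1 receptor with an unadjusted p under 0.05.

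**Figure D3:**
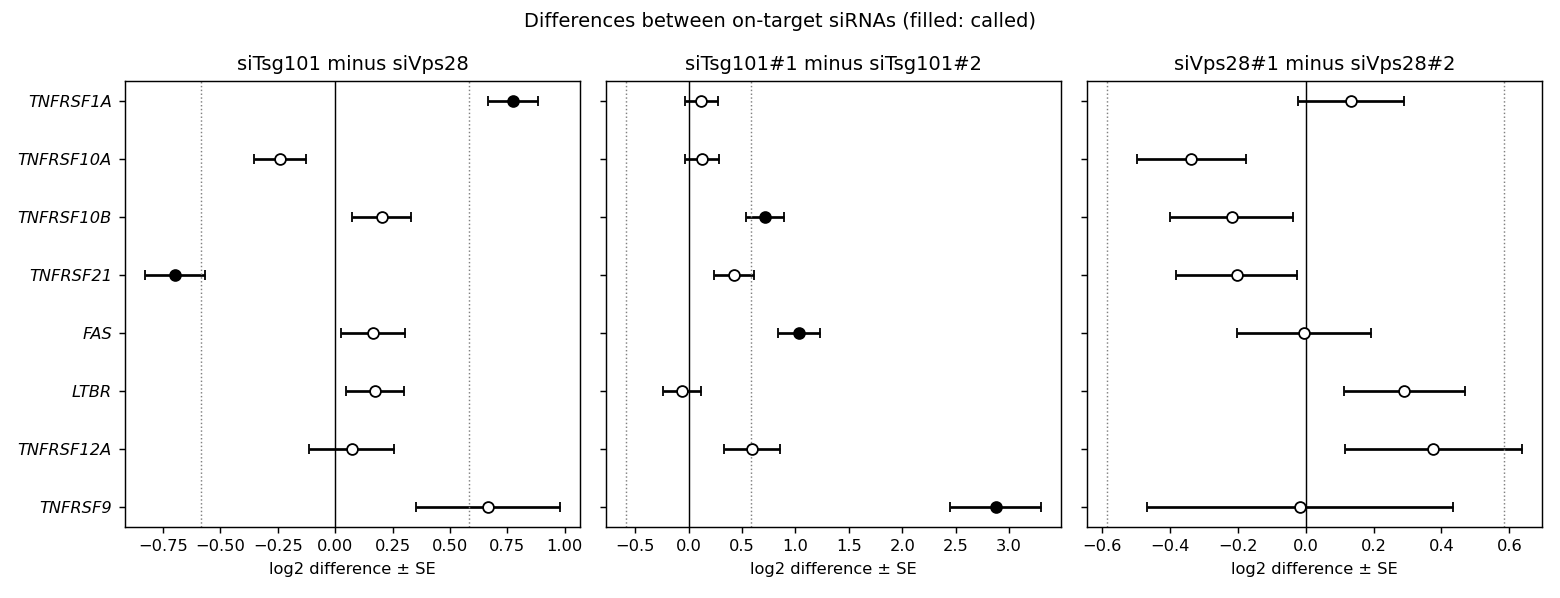
Log2 difference ± SE (horizontal axis) of the 8 receptors between Tsg101 and Vps28 depletion and between the siRNAs against the same mRNA; filled points were called, and dotted lines mark 1.5-fold. TNFRSF1A and TNFRSF21 separated siTsg101 from siVps28 in opposite directions, whereas FAS and TNFRSF10B separated siTsg101#1 from siTsg101#2. The points of TNFRSF9 follow the same fill rule but are a description with no test.

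Across the 18 libraries, which share siRNA and batch, the log2 levels of FAS and TNFRSF9 had a Pearson r of 0.88, those of TNFRSF10B and FAS 0.72 and those of TNFRSF10B and TNFRSF9 0.68. TNFRSF1A and TNFRSF21 had an r of -0.75. The tested genes most like TNFRSF9 were NINJ1 (0.96), the chemokine gene CXCL1 (0.96) and TNFAIP8 (0.94), and those most like FAS were TNFAIP6 (0.90), TNFRSF9 (0.88) and RAB5B (0.88). Most like TNFRSF10B were SH3GL1 (0.89), TBC1D10A (0.87) and the receptor tyrosine kinase gene EGFR (0.86). Most like TNFRSF1A were ST6GALNAC6 (0.92), SERPINB8 (0.91) and TUSC2 (0.91), and most like TNFRSF21 were ZFYVE27 (0.83), LYPLA2 (0.83) and ZNF512 (0.82).

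The highest r of LTBR was 0.86 (ULBP3, PRR14 and FAM110A), that of TNFRSF12A 0.91 (INO80D, then COTL1 at 0.86 and ADAMTSL5 at 0.83), and that of TNFRSF10A 0.79 (TASP1, then TOR1AIP1 and MBD1 at 0.77). These are descriptions over 18 libraries, picked as the highest values among all genes tested.

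The genes of 7 lists around the receptors are given for the mean of the 4 on-target siRNAs relative to siCtrl#1, in which 8.56% of all genes were called higher and 6.54% lower. Of 21 other receptors of the family, 5 were counted well enough to be tested (TNFRSF10D, TNFRSF14, TNFRSF25, CD40 and RELT), and none of these was called in the mean of the 4 on-target siRNAs by edgeR or by DESeq2, nor had an unadjusted p under 0.05. Relative to siCtrl#2, 1 of the 5 was called lower, TNFRSF10D, a decoy receptor for TRAIL whose value with siCtrl#2 relative to siCtrl#1 was 0.75. Their median log2 value was -0.11, and the median of all genes -0.0035. TNFRSF1B, the second TNF receptor, had 0 to 16 counts per library and was not tested.

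The ligands of these receptors were mostly uncounted. FASLG, TNFSF10 (TRAIL) and LTA had 0 reads in all libraries and TNF 0 to 3 counts per library. Of the 17 ligands on the panel 3 were tested, of which 1 was called higher. TNFSF9, the ligand of TNFRSF9, rose by 1.07 ± 0.17 in the mean of the 4 on-target siRNAs (edgeR adjusted p = 7.98e-05) and was called with each of them, and its value with siCtrl#2 was -0.10. TNFSF15, named after its values were seen, was at 0.77 ± 0.29 (adjusted p = 0.0542) and passed with the replicate number as a block. TNFSF12 (TWEAK), the ligand of TNFRSF12A and also named afterwards, had 28 to 89 counts per library. It was not called (-0.47 ± 0.22, edgeR adjusted p = 0.128).

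Among 12 tested adaptors that act next to the receptors, 3 were called higher and 1 lower. BIRC3, an inhibitor-of-apoptosis ubiquitin ligase of TNF receptor complexes, rose by 3.15 ± 0.28 (edgeR adjusted p = 5.22e-08) and TNIP1, a ubiquitin-binding inhibitor of NFκB signalling, by 0.99 ± 0.14 (adjusted p = 1.75e-05). BIRC2, the paralog of BIRC3, rose by 0.82 ± 0.16 relative to siCtrl#1, but its value relative to siCtrl#2 was 0.16 (adjusted p = 0.510). TRAF2 fell by 0.65 (SE 0.20, adjusted p = 0.0210), a call that was lost relative to siCtrl#2 (-0.47, adjusted p = 0.125) and without replicate 1 of siCtrl#1 (-0.40, adjusted p = 0.271).

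The NFκB relay had 12 of 17 tested genes called higher, 8 of them with all 4 on-target siRNAs, and none lower, where 8.56% and 6.54% of all genes were called. Its median log2 value was 0.91. DESeq2 called 12 higher and 0 lower, and 11 were called higher relative to siCtrl#2. At an unadjusted p under 0.05, 13 were higher and 1 lower. This response was known from earlier results of these data when the list was written. NFKBIA, which encodes the inhibitor IκBα, rose by 2.56 ± 0.23 (edgeR adjusted p = 6.25e-08) and TNFAIP3, the ubiquitin-editing inhibitor A20, by 1.92 ± 0.30 (adjusted p = 6.47e-05). MAP3K14, the NFκB-inducing kinase, rose by 1.59 ± 0.20 (adjusted p = 5.97e-06) and NFKBIE by 1.54 ± 0.22 (adjusted p = 1.75e-05). TNFAIP3 was the one of these 4 genes that was also called between the subunits, being higher with siTsg101 than with siVps28 by 1.52 (adjusted p = 1.54e-05).

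The caspases and mitochondrial mediators downstream of death receptors had 1 call among 12 tested genes, XIAP, an inhibitor of caspases. It rose by 1.06 ± 0.14 (edgeR adjusted p = 1.16e-05), and its value was 0.70 with siCtrl#2 and, relative to siCtrl#2, 0.36 (adjusted p = 0.0692). The median of this list was -0.02. Of 8 tested genes of proteases that cleave receptors in or near the membrane and of their partner proteins, ADAM17, which sheds TNF and its receptors, was called, at 0.82 ± 0.15 (adjusted p = 3.13e-04), and its value relative to siCtrl#2 was 0.54 (adjusted p = 0.0124), under 1.5-fold. RHBDF2, a partner of ADAM17 named after its values were seen, was at 0.65 ± 0.24 (adjusted p = 0.0574) and passed with the block. The RHBDF2 value with siCtrl#2 relative to siCtrl#1 was -0.99. Relative to siCtrl#2, 1 of the 8 genes was called higher (6.13% of all genes) and 0 lower (4.37%).

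FAS and TNFRSF10B are known p53 targets, and 12 other p53 target genes were tested beside them. CDKN1A (0.88 ± 0.14, edgeR adjusted p = 9.40e-05) and SESN2 (0.92 ± 0.24, adjusted p = 0.00804) were called higher and GDF15 lower (-1.20 ± 0.19, adjusted p = 7.62e-05), and the median was -0.01. Relative to siCtrl#2, CDKN1A was at 0.19 (adjusted p = 0.386) and GDF15 at 0.81 (adjusted p = 0.0163), the opposite direction. SESN2 was at 0.52 (adjusted p = 0.0548) without replicate 1 of siCtrl#1. FAS and TNFRSF10B were called with siTsg101#1 alone, relative to siCtrl#1, whereas this list is given for the mean of the on-target siRNAs. With siTsg101#1 and siTsg101#2, relative to siCtrl#1, BTG2 was at 0.895 and -0.339 and SESN1 at 0.68 and -0.23. Values were also higher with siTsg101#1 for CDKN1A (0.95 and 0.70), PHLDA3 (0.09 and -0.61), RRM2B (0.44 and -0.13) and MDM2 (0.26 and -0.04). The same held for BBC3 (0.15 and -0.11) and SESN2 (0.77 and 0.76). In the rest of the list, values were lower with siTsg101#1 for GDF15 (-2.54 and -0.04), ZMAT3 (-0.53 and 0.02), XPC (-0.38 and -0.37) and TP53I3 (0.42 and 0.43). A difference of the list between these siRNAs was not tested.

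**Figure D4:**
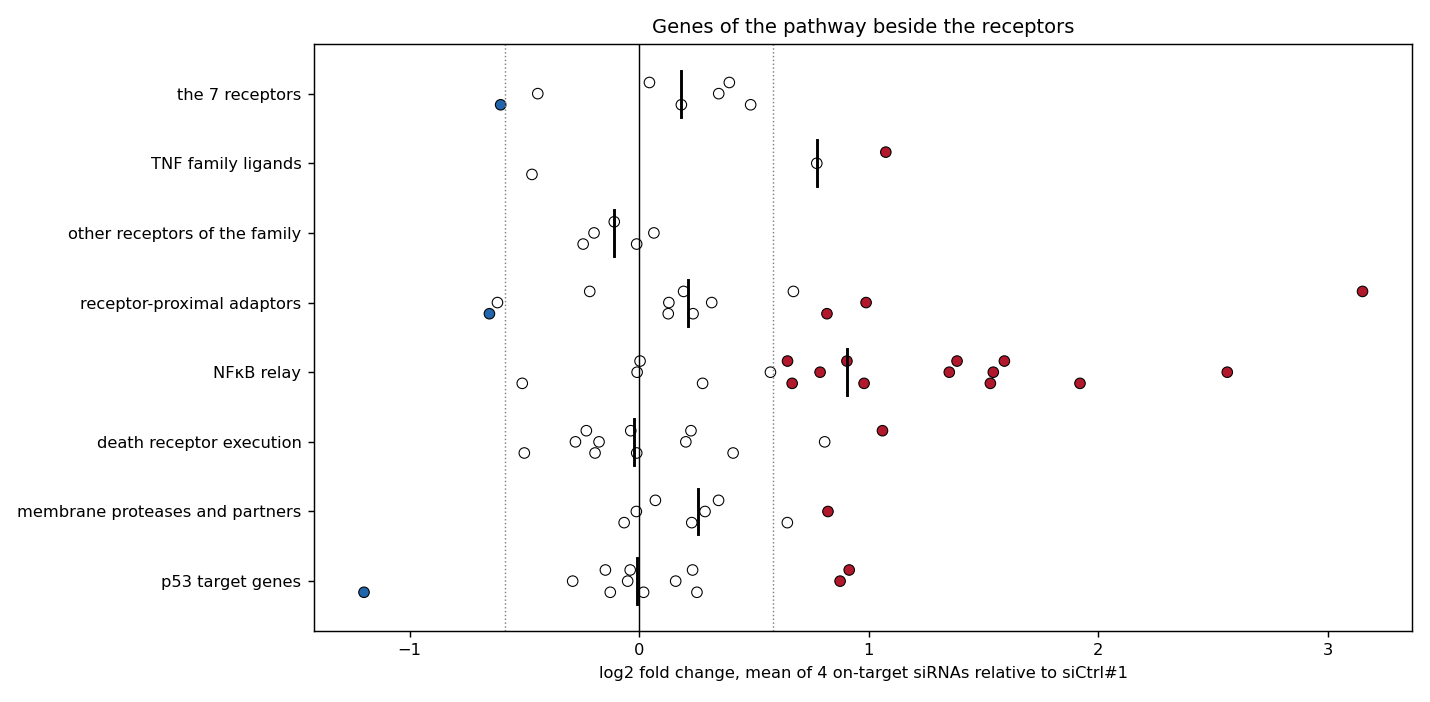
Log2 fold change in the mean of the 4 on-target siRNAs relative to siCtrl#1 (horizontal axis) for the 7 receptors and for the tested genes of 7 lists; points are genes, red called higher, blue called lower and white not called, black bars are medians, and dotted lines mark 1.5-fold. Of the NFκB relay 12 of 17 genes were called higher, beside 8.56% of all genes, and the values of the 7 receptors ran from -0.60 to 0.49.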

How the data were processed

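Libraries were made by the authors with the Ion AmpliSeq Transcriptome panel, sequenced on an Ion Proton instrument, aligned to the panel's hg19 reference and counted with HTSeq 0.6.0, as the submitters' processing notes list it beside DESeq2 1.18.1. The deposited counts are whole reads per RefSeq target, with no normalization and no filter. The strand setting of the counting is not given in the sources used here, and amplicon positions were not used here, so overlap and shared sequence are given over whole exons.

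Symbols were matched for 20228 of 20802 targets. The 10 spike-in targets, with 1 read in all, were left out of library sizes and tests. Counted reads were 45.4% to 46.68% of all reads per library, and 48.23% to 49.07% fell on no feature. The 10632 targets whose counts over the 18 libraries summed to more than 100 were retained, and 420 of them with a noncoding RefSeq identifier were left out, which left 10212. After TMM normalization, edgeR 4.0.16 (R 4.3.3) fitted the counts, all 6 groups in 1 model that shares an estimate of the spread, with its quasi-likelihood test. The script recovered known fold changes in simulated data. No pair of libraries was identical.

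The replicate number is the batch in the labels, so it pairs libraries across groups. Deviations from the group means had a mean correlation of 0.145 over 45 pairs of libraries with the same number and -0.0728 over 90 pairs with different numbers. The labels call the replicates biological.

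The members, the lists and the tests were chosen with earlier results of these data known. The genes named are the 8 receptors, TSG101, VPS28, up to 4 called genes per list with the largest change, and the 3 genes most like each receptor (prior count 2). Coordinates and overlaps are from GENCODE on GRCh37, and promoters from RefSeq. Receptor proteins and the promoters of TNFRSF10A, TNFRSF10B and TNFRSF12A were not analysed here. Alternatives were DESeq2 1.42.0, RLE size factors, a minimum of 10 counts per library or no minimum at all, noncoding targets kept, adjusted p alone, the replicate number as a block, only the groups compared, another reference (siCtrl#2, or both nontargeting groups averaged), CPM without TMM for levels, and each library left out in turn.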

Additional observations from a re-analysis of the deposited data

Results flagged for a closer look

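Differences between groups that were tested directly were called for TNFRSF1A, TNFRSF21, FAS and TNFRSF10B. TNFRSF1A differed between Tsg101 and Vps28 depletion by 0.78 (log2, edgeR adjusted p = 2.75e-05). It was higher in 6 of 6 siTsg101 libraries than in any siVps28 library, as were 3.33% of all genes. Between these groups 4.16% of all genes were called higher with siTsg101 and 2.07% lower. TNFRSF21 differed between the same groups by -0.70 (adjusted p = 6.81e-04), in the opposite direction. Between siTsg101#1 and siTsg101#2, which are directed at the same mRNA, FAS differed by 1.03 (adjusted p = 0.00173) and TNFRSF10B by 0.71 (adjusted p = 0.0154). In that comparison 3.12% of all genes were called higher with siTsg101#1 and 3.87% lower. TNFRSF9, given with no test, differed there by 2.87.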

How the results depend on the processing

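Over 142 results and 29 alternatives, 2542 of 2604 values kept their direction and their side of the threshold, or moved by less than the spread. With siCtrl#2 as the reference, the number of the 7 receptors called was 0 for siTsg101#2, 1 for siVps28#1 and 3 for siVps28#2, and with the mean of both nontargeting siRNAs it was 0 with siVps28#2. TNFRSF21 reversed with siCtrl#2 as the reference, to 0.10 with siTsg101#1, 0.69 with siVps28#2 and 0.24 in the mean of the 4 on-target siRNAs, and GDF15 to 0.81 in that mean. These alternatives replace the reference libraries, and TNFRSF21 and GDF15 were lower with siCtrl#2 than with siCtrl#1 by -0.84 and -2.01. By adjusted p alone, 4 receptors were called in the mean of the 4 on-target siRNAs, where 2426 of all genes tested were called. With the fold threshold kept, 1542 genes were called there. With only the groups compared in the fit, 0 receptors were called in siCtrl#2 against siCtrl#1 (TNFRSF21 adjusted p = 0.0843).

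Leaving out 1 library gave 0 to 1 called receptors with siVps28#2, 0 to 2 in the mean of the 4 on-target siRNAs and 0 to 1 with siCtrl#2. In that mean TNFRSF21 fell below 1.5-fold without replicate 1 of siCtrl#1 (-0.50), replicate 1 of siTsg101#1 (-0.58) or replicate 2 of siVps28#2 (-0.58), and without replicate 1 of siCtrl#1 FAS (0.67) and LTBR (-0.60) passed. TNFRSF21 in siCtrl#2 lost its call without replicate 1 or 3 of siCtrl#1, or replicate 2 or 3 of siCtrl#2 (adjusted p = 0.0504 to 0.0834). The replicate block changed no call of the receptors (TNFRSF1A between Tsg101 and Vps28 depletion was 0.78 with it, adjusted p = 2.31e-05) and added TNFSF15 and RHBDF2 among the listed genes. TNFRSF9, given with no test, was at 0.67 between Tsg101 and Vps28 depletion with no low-count filter. Depth limits TNFRSF9, TNFRSF21 and FAS most, with as few as 4 counts in an on-target library for TNFRSF9, and 31 and 43 counts in any library for the others.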
